A study of Homo sapiens with 6 samples.

Results

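The HOX genes and the transcripts that run antisense through their clusters were read out in MDA-MB-231 cells treated with the histone deacetylase inhibitor panobinostat. Members were all genes whose symbol in the count table began with HOXA, HOXB, HOXC or HOXD, together with the long non-coding RNAs HOTAIR and HOTTIP. This gave 28 of 30051 genes, of which 22 code for a homeodomain protein and 6 are non-coding (HOTAIR, HOTTIP, HOXB-AS1, HOXB-AS3, HOXC-AS1 and HOXC-AS2). The symbol column named 27 of them, and HOTTIP was matched by its gene identifier. HOTAIRM1 had no row and was not analysed here. By cluster there were 3 members in HOXA, 11 in HOXB, 9 in HOXC and 5 in HOXD. Of the 39 coding HOX genes, 2 of 11 in HOXA, 9 of 10 in HOXB, 6 of 9 in HOXC and 5 of 9 in HOXD had a row. The other 17 were not analysed here, so the sum over HOXA rests on HOXA3, HOXA13 and HOTTIP.

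MDA-MB-231 is an established human breast cancer line, triple-negative and claudin-low, that lacks the oestrogen and progesterone receptors. One group received the solvent DMSO and the other 50 nM panobinostat, both for 24 h, with 3 libraries in each group (DMSO replicates 1, 2 and 3, panobinostat replicates 1, 2 and 4). According to the design text each condition was repeated independently. RNA libraries were stranded mRNA libraries, and the deposited values were counts per gene with totals between 5389638 and 15106148 per library. Of the markers of the line, VIM, CD44, AXL, CAV1 and MSN were abundant. ESR1 (5 counts in DMSO and 13 in panobinostat) and CDH1 (1 and 0) were near 0, whereas EPCAM (18.5 and 11.2 counts per 1000000 counts, CPM) and CLDN7 (15.5 and 15.6) were present. Of the 7 markers expected low, 3 had enough counts to be tested, of which 1 was called higher, 1 lower and 1 was not called. Values of the rest of the 7, PGR, CLDN3 and CLDN4, are not given here. The leukocyte marker PTPRC had 0 and 2 counts and the fibroblast marker DCN 0 and 1. The endothelial marker PECAM1, by contrast, had enough counts to be tested. Its log2 fold change was −0.58 and it was not called, but it was called lower without panobinostat replicate 4. Panobinostat replicate 4 lay between the DMSO libraries and the other panobinostat libraries over many genes. The biological coefficient of variation over all tested genes was 0.112 with this library and 0.0283 without it, so library values, or values without it, are given for the HOX members that the results turn on.

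HOX genes encode transcription factors that set position along the body axis. They stand in 4 clusters in which the order of genes follows the order of their expression domains, from anterior genes (paralog numbers 1 to 3) through central (4 to 8) to posterior ones (9 to 13). HOX proteins bind DNA with partners of the TALE homeodomain family (PBX, MEIS and PKNOX), and the clusters are textbook targets of Polycomb silencing, which trithorax-group proteins oppose. Histone deacetylases remove acetyl groups from histones and other proteins, and panobinostat blocks several classes of them.

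Expression of the HOX genes was low and uneven. HOXB9 alone gave 363 of the 769 counts over all members in the DMSO libraries and 256 of 546 in the panobinostat libraries. Of the 28 members, 5 passed the filter on low counts (about 1.46 CPM in at least 3 libraries). These were HOXA13, HOXB3, HOXB9, HOXC6 and HOXD1. Another 7 members had at least 20 counts over the 6 libraries, 15 had between 1 and 17, and HOTAIR had none. The grid of counts by cluster and paralog number shows which positions carried reads.

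**Figure D1:**
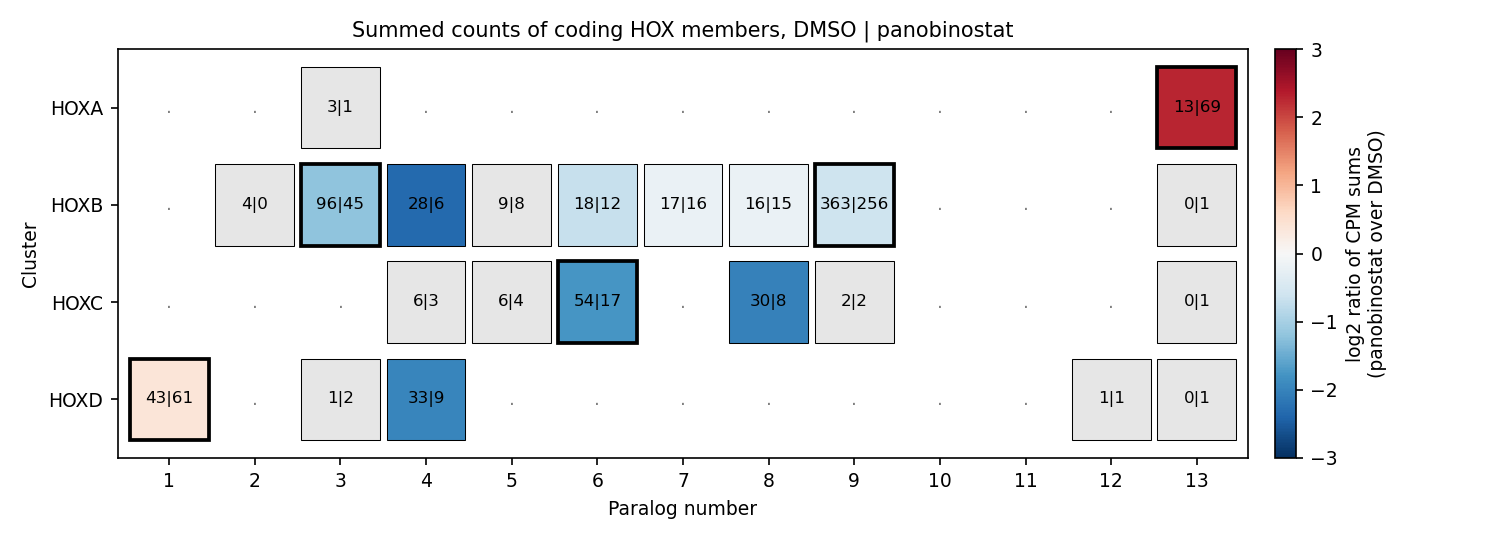
Counts of the HOX genes by cluster (rows) and paralog number (columns). Each cell gives the DMSO count and the panobinostat count, each summed over 3 libraries. The colour gives the log2 ratio of the rates, a thick border marks the 5 genes that passed the filter, grey cells have under 20 counts and a dot marks a gene not analysed here. HOXB9 has the most counts, and HOXA13 has 13 and 69.

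Promoter sequences are shown for HOXA13, HOXD1, HOXD4 and HOXB-AS3, the members with at least 20 counts for which a RefSeq window was at hand. They run from 250 bases before to 50 bases after a RefSeq start, 5′ to 3′ on the gene's strand, in build GRCh38.p14, with every CG pair in capitals. HOXA13 lies at chr7:27200042-27200341 on the minus strand. HOXD1 lies at chr2:176188418-176188717, HOXD4 at chr2:176151300-176151599 and HOXB-AS3 at chr17:48595708-48596007, all on the plus strand. The HOXB-AS3 window lies inside the RefSeq gene (chr17:48590420-48606414), not at its outer start.
HOXA13: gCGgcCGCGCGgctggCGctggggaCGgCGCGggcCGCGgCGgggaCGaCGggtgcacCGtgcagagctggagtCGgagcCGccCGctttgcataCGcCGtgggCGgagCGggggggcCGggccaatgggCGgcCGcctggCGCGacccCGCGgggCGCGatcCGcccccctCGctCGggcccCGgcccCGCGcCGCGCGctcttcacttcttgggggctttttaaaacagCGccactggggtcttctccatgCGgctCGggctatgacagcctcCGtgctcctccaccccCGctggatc
HOXD1: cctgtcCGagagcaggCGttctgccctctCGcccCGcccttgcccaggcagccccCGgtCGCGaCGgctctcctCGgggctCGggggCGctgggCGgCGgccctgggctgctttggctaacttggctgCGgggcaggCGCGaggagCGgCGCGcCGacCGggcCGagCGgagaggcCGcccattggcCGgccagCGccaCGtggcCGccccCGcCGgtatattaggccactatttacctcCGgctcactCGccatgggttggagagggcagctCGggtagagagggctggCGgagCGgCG
HOXD4: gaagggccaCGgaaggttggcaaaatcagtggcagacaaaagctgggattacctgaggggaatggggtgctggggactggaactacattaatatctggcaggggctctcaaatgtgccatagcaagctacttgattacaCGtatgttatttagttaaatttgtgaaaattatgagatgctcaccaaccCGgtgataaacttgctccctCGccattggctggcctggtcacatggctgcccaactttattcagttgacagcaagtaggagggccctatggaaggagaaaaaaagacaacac
HOXB-AS3: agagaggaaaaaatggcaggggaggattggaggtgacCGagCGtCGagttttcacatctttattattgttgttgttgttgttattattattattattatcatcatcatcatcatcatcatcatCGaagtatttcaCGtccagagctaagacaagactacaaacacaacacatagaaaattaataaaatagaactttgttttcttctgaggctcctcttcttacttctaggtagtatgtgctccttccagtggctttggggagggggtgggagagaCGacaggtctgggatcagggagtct

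The HOXA13 window held 44 CG pairs and the HOXD1 window 36, against a median of 14 over 35116 RefSeq promoter windows of the same length. Windows with as many or more were 4.19% of all for HOXA13 and 12.7% for HOXD1. HOXD4 had 4 CG pairs and HOXB-AS3 had 6, numbers that 75.5% and 66.3% of all windows reached. The motif CCAAT was found on one or the other strand in all 4 windows and in 34.6% of all windows. None of the 4 held TATAAA (11.5% of all windows), AGGTCA, the core letters bound by many nuclear receptors (13.8%), or TGATNNAT, a PBX-HOX composite site (7.40%), on either strand. Over all members, 12 of 28 had a window. The CG counts are a description and were not tested against the change in expression.

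HOXA13 rose, and HOXC6 and HOXB3 fell. Over all 13341 genes tested, edgeR's quasi-likelihood test with Benjamini-Hochberg adjustment called 58.9% at an adjusted p under 0.05 (30.2% higher and 28.6% lower). The call on 3 of 5 tested members is therefore near the background share. The median log2 fold change of the 5 was −0.55, against 0.00277 over all tested genes. The filter itself chose among them, since HOXA13 reached its level only in panobinostat libraries and HOXC6 only in DMSO libraries. In whole-culture RNA, fewer cells that express a gene and less RNA per cell cannot be told apart.

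HOXA13, the last gene of the HOXA cluster (chr7:27194364-27200091, minus strand), specifies distal limb and urogenital structures. It had 9, 1 and 3 counts in the DMSO libraries, or 0.763, 0.142 and 0.465 CPM. In panobinostat replicates 1, 2 and 4 it had 37, 20 and 12 counts, or 2.43, 3.68 and 1.81 CPM. Every panobinostat library lay above every DMSO library, with replicate 4 the lowest of the 3. The mean went from 0.457 ± 0.310 to 2.64 ± 0.952 CPM (SD, n = 3 each), and the log2 fold change was 2.31 ± 0.47 (SE; edgeR adjusted p = 0.00483). It was called under all 14 alternative settings, with log2 fold changes between 1.96 and 3.05, and was 2.42 without panobinostat replicate 4. Its neighbour HOTTIP, a non-coding RNA that starts 330 bases away on the other strand and is known for supporting expression of posterior HOXA genes, had 1 count in DMSO and 5 in panobinostat. The HOTTIP groups overlapped, and the 95% counting interval of its rate ratio, 0.518 to 219, includes no change. In the authors' deposited table, made over more libraries, HOTTIP had a log2 fold change of −0.14 and no adjusted p. The exons of the pair share 1.69% of the length of HOXA13 in the GENCODE 29 annotation.

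HOXC6, a central gene known in breast and prostate cancer (chr12:54016888-54030823), was the tested member with the largest fall. Its DMSO libraries had 2.03, 2.13 and 2.33 CPM. Panobinostat replicates 1, 2 and 4 had 0.526, 0.368 and 1.05. The groups did not overlap, and replicate 4 was the panobinostat library nearest to DMSO. The mean went from 2.17 ± 0.149 to 0.649 ± 0.359 CPM (SD, n = 3 each), a log2 fold change of −1.75 ± 0.35 (SE; edgeR adjusted p = 0.00473). It was called under all 14 alternatives and was −2.12 without replicate 4. HOXC6 shares 15.7% of its exon length with neighbours on its own strand, so part of its counts could be theirs.

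HOXB3, an anterior gene with roles in hindbrain patterning and blood progenitors (chr17:48548870-48590241), had 3.56, 3.42 and 4.65 CPM in the DMSO libraries. The panobinostat libraries had 1.12, 1.29 and 3.16. No panobinostat library reached the lowest DMSO library, but replicate 4 came close to it. The mean went from 3.88 ± 0.678 to 1.85 ± 1.13 CPM (SD, n = 3 each), a log2 fold change of −1.14 ± 0.39 (SE; edgeR adjusted p = 0.0336). The call did not hold when any 1 of the 3 DMSO libraries or panobinostat replicate 1 or 2 was left out (adjusted p between 0.0652 and 0.151), and with panobinostat replicate 4 left out the value was −1.70 (adjusted p = 4.56e-06).

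HOXB9, a posterior gene that has been studied in breast cancer invasion (chr17:48621156-48626358), was the most abundant member in every library. The DMSO libraries had 14.7, 15.4 and 12.6 CPM, and panobinostat replicates 1 and 2 had 7.95 and 7.54. Panobinostat replicate 4 had 14.1, inside the DMSO range. The means were 14.2 ± 1.47 and 9.88 ± 3.70 CPM (SD, n = 3 each), and the log2 fold change of −0.55 ± 0.24 (SE) was not called (edgeR adjusted p = 0.0790). The outcome changed with replicate 4 and with the fit. Without that library the log2 fold change was −0.87 with an adjusted p of 5.51e-07. With all 6 libraries, HOXB9 was called lower by limma-voom (adjusted p = 0.0347) and by edgeR with no filter (adjusted p = 0.00426). HOXB9 shares no exon with another gene of the GENCODE 29 annotation.

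HOXD1, an anterior gene expressed in sensory neurons and mesoderm (chr2:176188668-176190907), had 1.95, 1.14 and 1.86 CPM in DMSO and 1.91, 2.57 and 2.71 in panobinostat. The groups overlapped. Means were 1.65 ± 0.445 and 2.40 ± 0.430 CPM (SD, n = 3 each), and the log2 fold change of 0.45 ± 0.29 (SE) was not called by edgeR (adjusted p = 0.221) or under any of the 14 alternatives. On the opposite strand HAGLR, a non-coding RNA that starts 290 bases from HOXD1, was far more abundant. It is not a member by symbol and was chosen for mention after its values were seen. HAGLR had 30.5, 27.2 and 30.3 CPM in DMSO and 36.6, 34.9 and 30.7 in panobinostat, without overlap between the groups, and a log2 fold change of 0.22 ± 0.11 (SE; edgeR adjusted p = 0.105). Without panobinostat replicate 4 HAGLR was called higher, at 0.29 (edgeR adjusted p = 0.00174). Genes on the other strand, HAGLR among them, cover 58.1% of the exon length of HOXD1. Whether the counting used strand is not given, so how many HOXD1 counts came from HAGLR cannot be told apart.

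**Figure D2:**
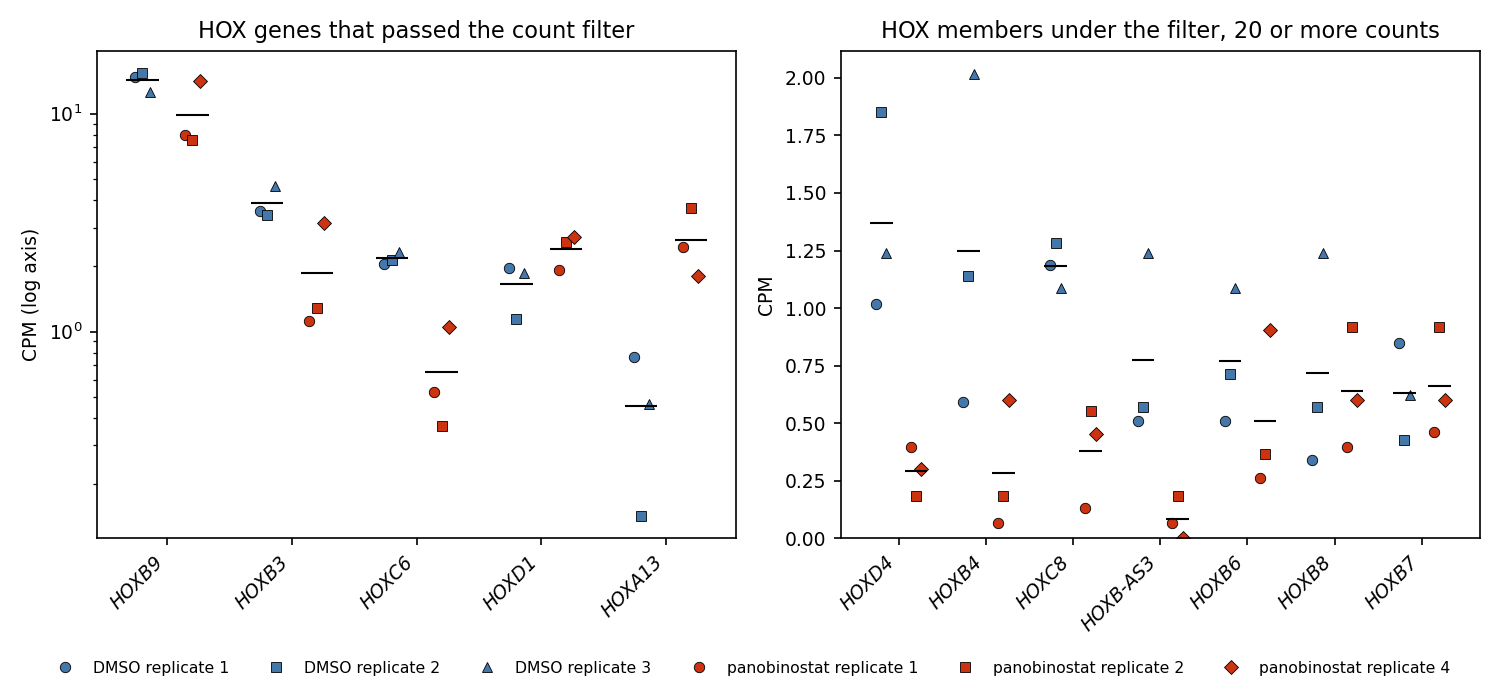
CPM of the 12 HOX members with at least 20 counts, by library (left, the 5 tested members on a log axis; right, the 7 that did not pass the filter). Points are single libraries of the DMSO and panobinostat groups. HOXA13 is higher in every panobinostat library, HOXB3 and HOXC6 are lower in every one, and the HOXB9 point of panobinostat replicate 4 lies among the DMSO points.

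The 7 untested members with at least 20 counts had a summed rate in panobinostat 0.393 times that in DMSO (160 counts against 68; 95% counting interval 0.292 to 0.526). All intervals of such rate ratios are exact conditional ones and cover counting error only. HOXD4, a central gene of the HOXD cluster (chr2:176151550-176153226), had 12, 13 and 8 counts in DMSO and 6, 1 and 2 in panobinostat. In CPM no panobinostat library reached the lowest DMSO library, and the rate ratio was 0.252 (0.106 to 0.539). HOXD4 shares 80.5% of its exon length with another transcript on the same strand, AC009336.2, so its reads may be shared with it. HOXC8, which patterns the thoracic region (chr12:54008985-54012769), had 14, 9 and 7 counts in DMSO and 2, 3 and 3 in panobinostat. Its libraries did not overlap in CPM, the rate ratio was 0.247 (0.0978 to 0.551), and it shares no exon with another gene.

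HOXB4, known for expanding blood stem cells (chr17:48575507-48578350), had 7, 8 and 13 counts in DMSO and 1, 1 and 4 in panobinostat. Panobinostat replicate 4, at 0.602 CPM, lay just above the lowest DMSO library at 0.593, so the groups overlapped, with a rate ratio of 0.198 (0.0672 to 0.488). HOXB-AS3, a non-coding RNA antisense to the middle of the HOXB cluster, had 6, 4 and 8 counts in DMSO and 1, 1 and 0 in panobinostat. Its groups did not overlap, and its rate was 0.103 times that in DMSO (0.0116 to 0.430). The exons of HOXB3, HOXB5 and HOXB6 cover 30.1% of its length on the other strand. The last 3 genes, the neighbours HOXB6, HOXB7 and HOXB8, had 18, 17 and 16 counts in DMSO and 12, 16 and 15 in panobinostat, and the groups overlapped for each.

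Without the filter, edgeR gave a value for 27 members and called 8 lower and 1 higher, where 28.4% of all genes with a value were called (13.8% lower and 14.6% higher). Among genes with at least 20 counts 48.1% were called (24.0% lower and 24.0% higher). The 8 were HOXB3, HOXB9 and HOXC6 with HOXB4 (adjusted p = 0.00186), HOXB-AS3 (0.00270), HOXC8 (0.00522), HOXD4 (0.00207) and HOXC-AS2 (0.0431). With panobinostat replicate 4 also left out, 7 were called lower and 1 higher, against 37.8% of all genes (17.6% lower and 20.2% higher). DESeq2's Wald test gave an adjusted p for 13 members and called 5, namely HOXB3, HOXB-AS3, HOXC6 and HOXD4 lower and HOXA13 higher, against 41.1% of all genes with an adjusted p. Of the 12 members with at least 20 counts, 5 did not overlap between groups in the lower direction and 1 in the higher direction. Over all genes with at least 20 counts 62.0% did not overlap, 29.3% in the lower direction and 32.7% in the higher one.

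Panobinostat replicate 4 lay between the mean of the other panobinostat libraries and the DMSO mean for 7 of these 12 members. It lay within the DMSO range for 5, all in the HOXB cluster (HOXB4, HOXB6, HOXB7, HOXB8 and HOXB9). Why this library differs was not tested.

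The authors' deposited table of the same comparison, made over more libraries than the 6 counted here and sharing these, is not independent of the values above. It gave an adjusted p for 13 members and put 7 under 0.05, where 40.8% of all genes with an adjusted p were (20.7% higher and 20.1% lower). In the authors' deposited table HOXA13 was higher, with a log2 fold change of 1.99 and an adjusted p of 0.00896. The same authors' deposited table had 6 members lower, namely HOXB3 (log2 fold change −1.12), HOXB9 (−0.51), HOXC6 (−1.77), HOXC8 (−1.85), HOXD4 (−1.95) and HOXB-AS3 (−3.18). HOXB4, at −2.12 with an adjusted p of 0.0506 in the authors' deposited table, was just outside.

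HOXB carried most of the HOX expression and was lower after panobinostat, with 569 counts in DMSO and 362 in panobinostat. Its sums were 21.6, 22.6 and 24.0 CPM in DMSO and 10.6, 11.6 and 20.8 in panobinostat, so the groups did not overlap but replicate 4 stood close to the DMSO libraries. The rate ratio was 0.589 (95% counting interval 0.515 to 0.673), or 0.482 without replicate 4. Leaving out HOXB9 gave 206 and 106 counts and a ratio of 0.476 (0.373 to 0.605), so the lower sum does not come from HOXB9 alone.

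HOXC was lower as well, with 105 and 35 counts. In CPM it was 3.90, 3.99 and 4.81 in DMSO and 0.920, 1.10 and 2.26 in panobinostat, a ratio of 0.309 (0.204 to 0.456). HOXC6 and HOXC8 gave most of these counts. HOXA had 17 and 75 counts, with a ratio of 4.08 (2.39 to 7.38), of which HOXA13 gave 13 and 69. HOXD had 78 and 74 counts, with sums of 3.05, 3.13 and 3.10 CPM in DMSO and 2.56, 2.76 and 3.01 in panobinostat, and a ratio of 0.878 (0.630 to 1.22). Every panobinostat sum of HOXD lay below every DMSO sum, but by a small margin, and the interval of the ratio includes no change. Within HOXD, HOXD4 had a ratio of 0.252. HOXD1 and HOXD3 together had one of 1.33, with an interval (0.888 to 1.99) that includes no change, though their summed CPM did not overlap between groups. These ratios describe sums and were not tested against each other.

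**Figure D3:**
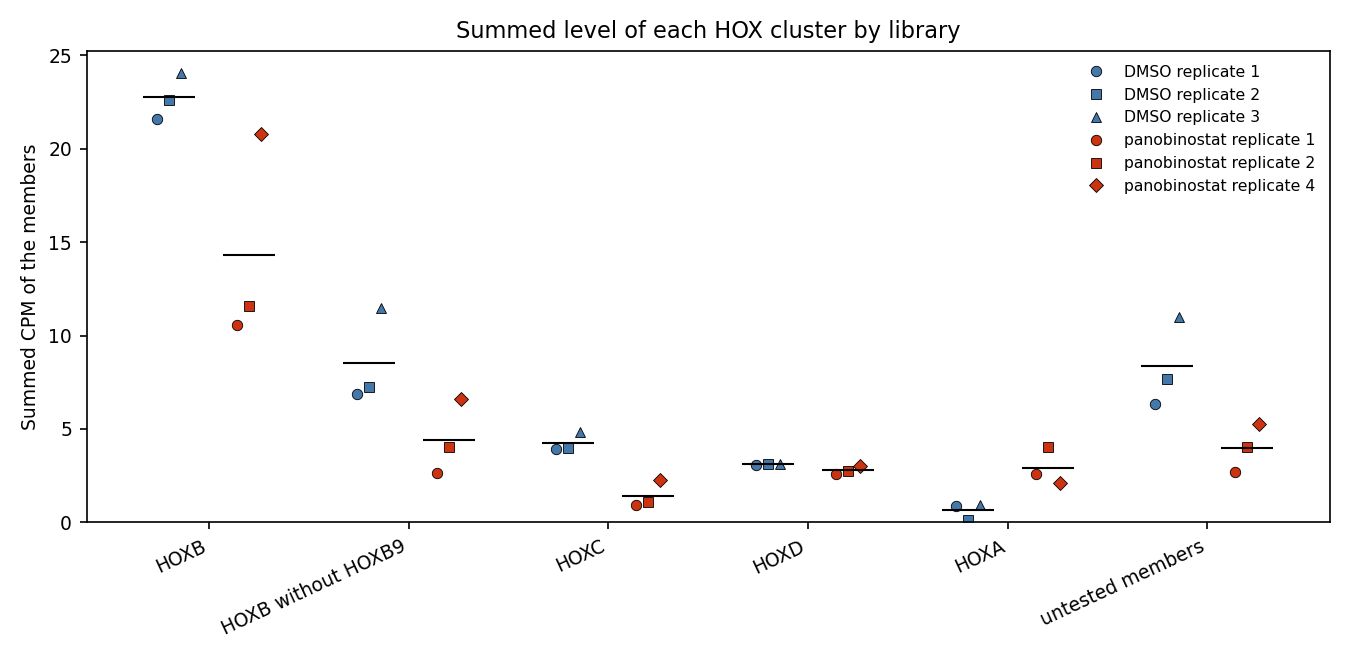
CPM summed over the members of each HOX cluster, by library. Points are the 3 DMSO and 3 panobinostat libraries. HOXC and HOXB sums are lower in every panobinostat library, the HOXA sum is higher in every one, and the HOXD sums lie between 2.56 and 3.13. The HOXD sums of the panobinostat libraries are the lower ones, by a small margin.

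By paralog position, the central members (numbers 4 to 8) stood lowest relative to DMSO. Their sums were 7.29, 8.54 and 11.0 CPM in DMSO and 2.56, 3.68 and 5.87 in panobinostat, without overlap, and the ratio was 0.418 (0.326 to 0.533). Anterior members (1 to 3) had a ratio of 0.686 (0.531 to 0.885) and posterior members (9 to 13) one of 0.809 (0.696 to 0.939), and for both the groups overlapped. Within the anterior class, HOXB (100 counts in DMSO and 45 in panobinostat) had a ratio of 0.417, whereas that of HOXD was 1.33. The posterior class consists almost wholly of HOXB9 and HOXA13, which had opposite signs. Its remaining members (HOXB13, HOXC9, HOXC13, HOXD12 and HOXD13) had 3 counts in DMSO and 6 in panobinostat. Central members of HOXC had a ratio of 0.309 (0.200 to 0.465). Those of HOXB had 0.600 (0.422 to 0.846), with overlapping groups.

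Coding members summed to 743 and 538 counts in the respective groups, and the ratio was 0.670 (0.599 to 0.750). The 6 non-coding members had 26 and 8 counts, a ratio of 0.285 (0.111 to 0.648), of which HOXB-AS3 gave 18 and 2.

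The 16 members under 20 counts together had 40 counts in DMSO and 30 in panobinostat, with overlapping groups and a ratio of 0.694 (0.418 to 1.14). HOTAIR, a non-coding RNA of the HOXC cluster known for its ties to Polycomb and to breast cancer metastasis, had 0 counts in all 6 libraries. A count of 0 allows a level of up to 0.119 CPM over the DMSO libraries and 0.110 over the panobinostat libraries (3 counts of the group's total). HOXC-AS2 had 6 and 0 counts, with a counting interval of the rate ratio from 0 to 0.786. HOXB2 had 4 and 0, with an interval from 0 to 1.40, which includes no change. HOXB5 had 9 and 8 counts, HOXC4 6 and 3, HOXC5 6 and 4, HOXA3 3 and 1, HOXC9 2 and 2, HOXD3 1 and 2, and HOXD12 1 and 1. HOXB13, HOXC13, HOXD13 and HOXB-AS1 had 0 and 1, and HOXC-AS1 had 1 and 0. Apart from HOXC-AS2, which the fit without the filter called, no difference was detectable at this depth for these genes singly. Rows that lack a symbol but match a HOX antisense name by identifier were as sparse: HOXA-AS2 had 13 and 5 counts, HOXB-AS2 2 and 1, HOXB-AS4 0 and 1, and HOXD-AS2 none.

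Per kilobase of annotated exon, HOXB9 stood above every other member in DMSO, at 5.51 ± 0.570 CPM per kilobase (SD, n = 3). HOXD4 (0.935), HOXD1 (0.835), HOXC8 (0.627), HOXC6 (0.612), HOXB3 (0.520), HOXB7 (0.413) and HOXB-AS3 (0.404) followed on the same scale. HOXB8, HOXB4 and HOXB6 came next, down to 0.295 for HOXB6. From HOXD4 to HOXB6, neighbours in this order overlapped between libraries. HOXA13 was last of the 12, at 0.0898 ± 0.0610, below HOXB6 in every library. In panobinostat HOXB9 was still first on this scale, at 3.83 ± 1.43, and HOXD1 second at 1.21 ± 0.218. HOXA13 was the third of the 12, at 0.519 ± 0.187, and HOXB-AS3 the last at 0.0435. Only HOXB9 and HOXD1 stood apart from the next gene in every library there. Lengths are unions of GENCODE 29 exons, so a gene read from 1 short isoform has a per-length level that is too low. Other genes cover 80.5% of the exon length of HOXD4 on its own strand and 58.1% of that of HOXD1 on the other strand. The places of HOXD4 and HOXD1 in this order are therefore uncertain.

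Most cofactors of HOX proteins were abundant enough to test and changed, in both directions. All 9 genes of the cofactor list reported here passed the filter, of which 5 were called higher, 3 lower and 1 was not called. The list holds TALE genes and PBXIP1, which is not a TALE gene and was among the 5 called higher. Of the 5, MEIS3 and PKNOX2 reached the filter level in panobinostat libraries only, so they could be tested only because they were high there. PBX4, a DNA-binding partner of HOX proteins, rose from 3.63 ± 0.215 to 9.89 ± 1.92 CPM (SD, n = 3 each; log2 fold change 1.45 ± 0.20 SE, edgeR adjusted p = 0.00133). Also higher were PBXIP1, which binds PBX proteins and blocks their DNA binding (1.35 ± 0.14), and MEIS1 (0.87 ± 0.22), values being log2 fold changes with SE. MEIS3 had 1 count in DMSO and 95 in panobinostat, and PKNOX2 had 3 and 99. Their rate ratios were 87.9 (95% counting interval 15.4 to 3510) and 30.6 (10.2 to 151).

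In the other direction, MEIS2 had the largest fall of the list. It went from 22.2 ± 0.591 to 7.97 ± 3.81 CPM (SD, n = 3 each), a log2 fold change of −1.50 ± 0.26 (SE; edgeR adjusted p = 0.00306). PBX3 (−0.67 ± 0.13) and PKNOX1 (−0.56 ± 0.16) also fell. PBX2 was not called (−0.79 ± 0.89, edgeR adjusted p = 0.464), and its value was −2.69 without panobinostat replicate 4. The families split, with PBX4 higher and PBX3 lower, and MEIS1 and MEIS3 higher and MEIS2 lower. For all 8 called cofactors panobinostat replicate 4 was the panobinostat library nearest to the DMSO mean, at 12.3 CPM for MEIS2.

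**Figure D4:**
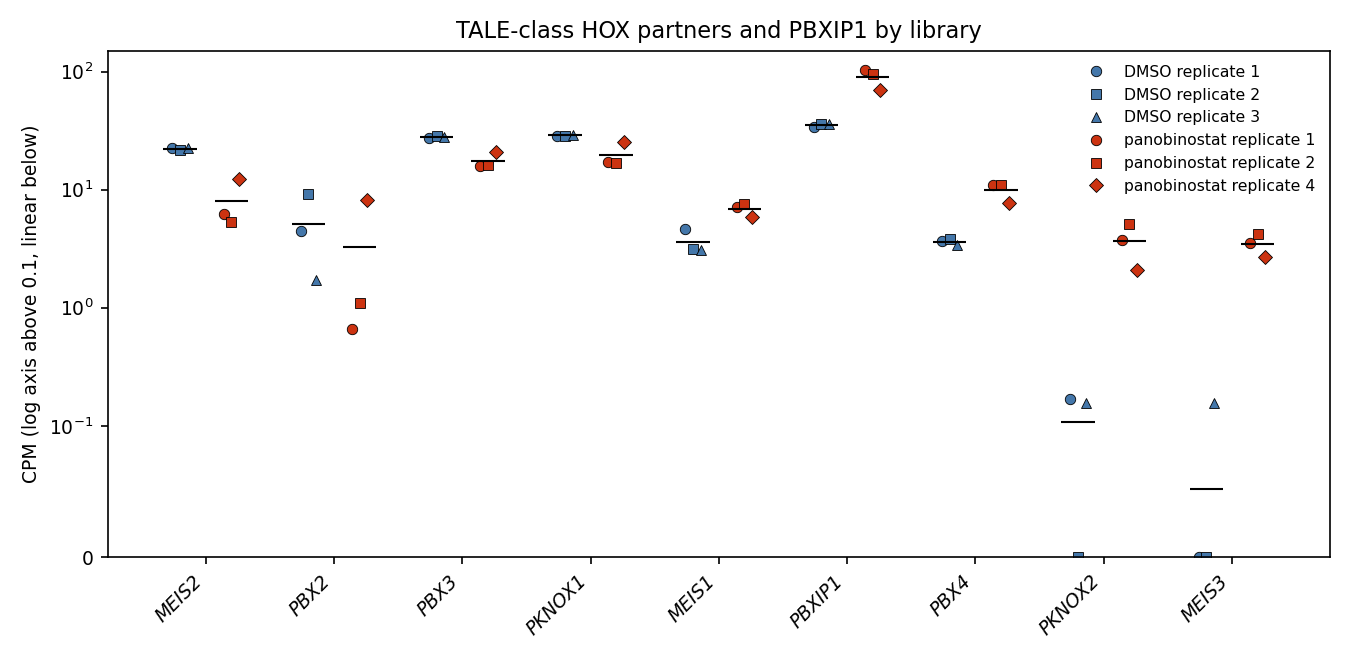
CPM of 9 HOX cofactor genes by library, on an axis that is linear near 0 and logarithmic above. Points are the DMSO and panobinostat libraries. MEIS3 and PKNOX2 are near 0 in DMSO, and MEIS2, PBX3 and PKNOX1 lie below their DMSO libraries.

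Of 32 tested genes that flank the clusters, 3 were called higher and 13 lower, with a median log2 fold change of −0.11. Without panobinostat replicate 4 these counts were 6 and 15. In the filtered fit with all 6 libraries 30.2% of all tested genes were called higher and 28.6% lower. Leaving that library out raised calls over all genes too. This is given only for the fits with no filter, from 28.4% to 37.8%, which run over many more sparse genes. Among homeobox genes of the same ANTP class that lie outside the HOX clusters, 12 of 30 with a row were tested, of which 6 were called higher and 2 lower. For 4 of the 6 (DLX3, MEOX1, DLX4 and NKX2-5) the filter level was reached in panobinostat libraries only, so the filter itself favoured higher calls. DLX3 went from 1 to 154 counts (rate ratio 143, interval 25.2 to 5667) and MEOX1 from 1 to 72 (66.7, interval 11.6 to 2669). DLX4 (2.15 ± 0.28) and NKX2-5 (1.30 ± 0.33) rose as well, values being log2 fold changes with SE from edgeR. MSX2, a gene of limb and skull development, rose from 8.77 ± 1.46 to 19.9 ± 4.49 CPM (SD, n = 3 each). HHEX (−0.56 ± 0.14) and LBX2 (−0.86 ± 0.25) fell, as log2 fold changes with SE.

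Of 6 tested genes of the retinoid list, which feeds signals into HOX clusters, 3 were called higher and 2 lower. CRABP2, a retinoic acid carrier, rose with a log2 fold change of 2.48 ± 0.36 (SE), and the receptor gene RARA rose by 0.66 ± 0.13. Of 31 tested chromatin regulators of HOX clusters, 6 were called higher, 14 lower and 11 were not called. The Polycomb enzyme EZH2, chosen after its values were seen, fell from 175 ± 8.10 to 118 ± 13.4 CPM (SD, n = 3 each; log2 fold change −0.57 ± 0.09 SE). Its partner PHF19 (−1.63 ± 0.36), the histone chaperone RBBP4 of the same complex (−0.59 ± 0.10) and the insulator protein gene CTCF (−0.84 ± 0.19) fell too, whereas CBX7 (1.28 ± 0.23) and JARID2 (0.81 ± 0.12) rose. These shares of called genes stand beside 30.2% higher and 28.6% lower over all tested genes, and no list was tested against the rest.

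Across the alternative settings HOXA13 and HOXC6 were called in all 14 and HOXD1 in none. HOXB3 was called in 9 of them and HOXB9 in 5.

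**Figure D5:**
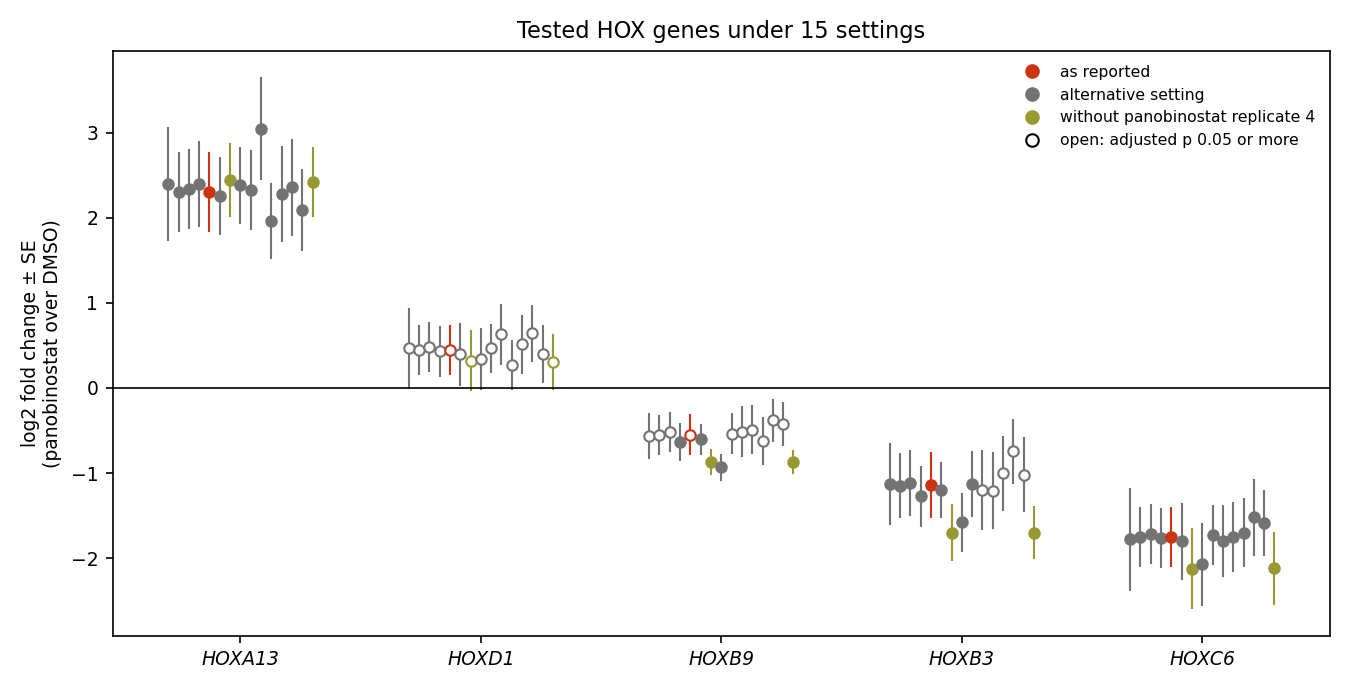
Log2 fold change (panobinostat against DMSO, with SE) of the 5 tested HOX members under the reported fit and 14 alternative settings. No member changes sign. HOXB3 goes from −1.14 to −1.70 and HOXB9 from −0.55 to −0.87 without panobinostat replicate 4.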

How the data were processed

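RNA of 3 DMSO and 3 panobinostat libraries was used. Libraries were made with a stranded mRNA kit, per the labels' protocols, and FastQC and build GRCh38.p14 are named in the submitters' processing notes. No aligner, annotation or strand setting is given in the sources used. The authors deposited whole-number counts per gene, used as they stand. Their deposited table of the comparison gives a base mean (a normalized signal), log2 fold changes with SE, a test score, p-values and adjusted p-values.

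Genes were tested with edgeR 4.0.16 (TMM, filterByExpr with a minimum count of 10, robust quasi-likelihood test) under R 4.3.3, with Benjamini-Hochberg adjustment over all 13341 genes tested and a threshold of 0.05. DESeq2 1.42.0, limma 3.58.1, other scaling factors, no filter, a replicate block and each library left out were the alternatives. One more, no filter without panobinostat replicate 4, was added after seeing the data. The test was checked on simulated data with the same dispersion for every gene and no outlying library. That check therefore does not cover a library such as panobinostat replicate 4. Counts per 1000000 (CPM) use TMM library sizes, and intervals are 95%. Replicate numbers 1 and 2 occur in both groups, and the samples share only a number.

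HOX members, further gene lists and markers were chosen with earlier results of these data known. All members are named, with library values from 20 counts up. From each further list up to 6 called genes per direction could be named, by size of change; genes named outside this rule were chosen after their values were seen. Every list was a description with no test. Some genes of these lists are not reported here.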

Additional observations from a re-analysis of the deposited data

How the results depend on the processing

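The count of 1 member called higher was the same in all 14 alternatives, and no tested member changed sign in any of them. The count of members called lower was 2 of 5 tested, 4 of 13 with DESeq2's Wald test, 8 of 27 with no filter and 7 of 27 with no filter and without panobinostat replicate 4. With each library left out in turn it lay between 1 and 3. The median log2 fold change of −0.55 over the 5 tested members was −1.19 with no filter and without panobinostat replicate 4, where it runs over 27 members. It lay between −0.87 and −0.38 with each library left out in turn. In the fit with the replicate block, which keeps both groups' replicate numbers as a term, the median was −0.93, with 3 members called lower and 1 higher. Numbers 3 and 4 each occur in only 1 group, so that fit takes its drug effect from replicates 1 and 2. Panobinostat replicate 4 gives it no information on the effect, and it is not separate from the fits without that library. Same-numbered libraries did not deviate together (correlation of deviations 0.0540 for number 1 and 0.00840 for number 2). The cause of these shifts was not tested. HOXB9 joined the lower calls in 5 alternatives (no filter, limma-voom, the replicate block, and both fits without panobinostat replicate 4), and HOXB3 left them in 5. Depth limits the 16 members under 20 counts most, since a count of 0 over a whole group still allows about 0.119 CPM in DMSO and 0.110 CPM in panobinostat.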

Other observations

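Of 32 tested genes at the edges of the HOX clusters, 3 were called higher. CALCOCO1, an autophagy receptor gene beside HOXC, rose from 25.6 ± 0.970 to 74.3 ± 18.3 CPM (SD, n = 3 each; log2 fold change 1.54 ± 0.18 SE, edgeR adjusted p = 0.000824). CALCOCO2, which encodes the autophagy receptor NDP52 and lies beside HOXB, rose from 94.7 ± 2.92 to 163 ± 20.2 CPM (0.78 ± 0.10, edgeR adjusted p = 0.000996). TAX1BP1, beside HOXA, had a log2 fold change of 0.24 ± 0.07 (SE; edgeR adjusted p = 0.0158). Without panobinostat replicate 4 the number called higher was 6, with SKAP2 (0.22), SNX11 (0.38) and ATP5MC3 (0.23) added. In the filtered fit with all 6 libraries 30.2% of all tested genes were called higher. That share without replicate 4 is not given here. In the fits with no filter, which run over many more sparse genes, higher calls rose from 14.6% to 20.2%. TTLL6, beside HOXB, did not pass the filter but had 0 counts in DMSO and 15, 8 and 4 in panobinostat replicates 1, 2 and 4, and edgeR with no filter called it higher (adjusted p = 3.93e-06).

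The flanking genes with the largest falls past the edgeR threshold were TARBP2 (log2 fold change −0.85 ± 0.16 SE), the heterochromatin protein gene CBX5 beside HOXC (−0.78 ± 0.18), UBE2Z (−0.71 ± 0.12), ATF7 (−0.56 ± 0.21), NFE2L1 (−0.55 ± 0.11) and CBX3 beside HOXA (−0.49 ± 0.13). Some related genes had values near 0 and were not called by edgeR, such as CBX1 (−0.03, adjusted p = 0.690) beside HOXB and NFE2L3 (0.01, adjusted p = 0.889) beside HOXA. Other relatives on the list were lower. ATF2, a relative of ATF7, had 52.3, 49.8 and 50.6 CPM in DMSO and 35.6, 38.2 and 46.2 in panobinostat. HNRNPA1 (−0.48, edgeR adjusted p = 0.00365) and HNRNPA2B1 (−0.31, edgeR adjusted p = 0.00452) were both called lower.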
